A study of Mus musculus with 23 samples.

Results

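Interferon-response and antigen-processing genes were followed in mouse embryonic stem (ES) cells that received SRF-VP16, a fusion of serum response factor (SRF) with the viral VP16 activation domain. The genes were chosen by name. They are Isg15, Irf1, Irf7, Ifit1, Ifit3, Usp18, Psmb8, Psmb9 and Tapbp, and all 9 were annotated, out of 8132 genes that a probe set names alone. They hold 10 of the 12502 probe sets of the arrays. Total RNA was measured 72 h after transfection in 4 lines, E100 and E81 (both -/-), E99 (+/-) and the wild-type line E14wt. Which gene the genotype symbols refer to is not stated in the labels. Each line received SRF-VP16, the control plasmid SRFdM-VP16, which by its name also carries VP16, or vector. Of the 23 arrays, 8 had SRF-VP16, 8 had SRFdM-VP16 and 7 had vector, a pair of arrays for each line and plasmid but a single one for E100 with vector. The labels do not say whether duplicates were separate cultures, so p-values measure the spread between these arrays, which may be technical. The question asked of each gene was whether its level followed SRF-VP16, either VP16 plasmid, or the line.

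Interferons signal through receptors on the cell surface to kinases of the JAK family and to transcription factors, which enter the nucleus and bind, together with interferon regulatory factors (IRFs), to short elements in the promoters of responsive genes. Type I interferon acts mainly through the interferon-stimulated response element (ISRE), and interferon gamma through the gamma-activated site (GAS). Pluripotent stem cells are known to respond weakly to interferon. Among the genes followed, Irf1 and Irf7 encode transcription factors of the response. Isg15 encodes a ubiquitin-like modifier that is attached to other proteins, and Usp18 encodes the protease that removes it. Ifit1 and Ifit3 encode RNA-binding antiviral proteins. Psmb8 and Psmb9 encode catalytic subunits of the immunoproteasome, which cuts proteins into peptides for MHC class I molecules, and Tapbp encodes tapasin, which helps load those peptides.

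The promoters of Isg15, Ifit1 and Ifit3 are printed because these 3 genes share the ISRE but differed in their readout, and that of Tapbp because it changed without such a match. Each window runs from 250 bases before to 50 bases after the RefSeq start, on the strand of the gene (GRCm38.p6, RefSeq). Isg15 lies on the minus strand (chr4:156200769-156201068), and Ifit1 (chr19:34640639-34640938), Ifit3 (chr19:34583279-34583578) and Tapbp (chr17:33919228-33919527) lie on the plus strand. Capitals mark matches to the ISRE core on either strand.
Isg15: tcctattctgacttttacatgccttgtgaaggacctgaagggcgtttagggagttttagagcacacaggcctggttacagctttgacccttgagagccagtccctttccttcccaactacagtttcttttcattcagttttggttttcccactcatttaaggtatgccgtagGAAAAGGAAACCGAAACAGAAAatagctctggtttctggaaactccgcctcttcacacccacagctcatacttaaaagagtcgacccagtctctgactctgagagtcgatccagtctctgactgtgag
Ifit1: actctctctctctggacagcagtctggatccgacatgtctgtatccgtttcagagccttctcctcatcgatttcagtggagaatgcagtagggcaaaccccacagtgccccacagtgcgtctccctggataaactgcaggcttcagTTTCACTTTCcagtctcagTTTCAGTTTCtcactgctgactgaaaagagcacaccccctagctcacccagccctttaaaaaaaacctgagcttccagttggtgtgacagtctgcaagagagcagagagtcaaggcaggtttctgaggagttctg
Ifit3: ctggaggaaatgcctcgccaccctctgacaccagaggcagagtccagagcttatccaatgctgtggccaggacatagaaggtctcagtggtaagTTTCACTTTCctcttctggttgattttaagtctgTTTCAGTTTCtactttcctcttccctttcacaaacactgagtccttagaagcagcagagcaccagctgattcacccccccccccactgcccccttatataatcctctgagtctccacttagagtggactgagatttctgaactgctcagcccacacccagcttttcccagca
Tapbp: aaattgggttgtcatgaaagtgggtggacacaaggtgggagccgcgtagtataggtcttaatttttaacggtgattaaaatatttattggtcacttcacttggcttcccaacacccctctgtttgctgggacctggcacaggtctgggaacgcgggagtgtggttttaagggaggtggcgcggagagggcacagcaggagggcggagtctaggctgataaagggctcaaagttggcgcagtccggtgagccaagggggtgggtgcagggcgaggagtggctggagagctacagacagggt

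Windows were available for 8 of the 9 genes, 9 windows in all. The ISRE core, GAAA followed by any NN and again GAAA, on either strand, was found in 3 of the genes, with 3 overlapping matches in Isg15, 2 in Ifit1 and 2 in Ifit3. It occurs in 3.44% of the 32851 promoters of the table. The GAS core, TTC, any NNN and GAA, was found in Irf1 and Psmb8 and occurs in 8.3% of promoters, and an NF-kappaB motif was found in Irf1 and occurs in 5.8%. The CArG box, the motif bound by SRF, was not found in these windows and occurs in 1.63% of promoters. A match is a description of the letters, and its absence says nothing of sites outside the window.

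The arrays give a linear intensity per probe set, and 29.1% of all values were at or below 0. Values up to 58, the 40th percentile of all values, were set to 58 before the logarithm, and this level is called the floor. Probe sets above the 40th percentile of their own array in at least 2 arrays were tested, 9653 in all. Changes are log2 changes ± SE, and adjusted p-values are limma's with Benjamini-Hochberg adjustment over all 9653 at 5%. Of the 10 probe sets of the genes followed, 6 were tested, for Isg15, Tapbp (a pair of probe sets), Irf1, Irf7 and Psmb8. Array medians ran from 103 to 179 with SRF-VP16, 53.5 to 179 with SRFdM-VP16 and 139 to 207 with vector. Over 30% of the values were at or below 0 on 2 of 8 SRF-VP16 arrays, both of E81, and on 5 of 8 SRFdM-VP16 arrays, against 0 of 7 vector arrays, and E81 SRFdM-VP16 replicate 1 had the lowest median. The median change of all probe sets between SRFdM-VP16 and vector was -0.20 as deposited, 0.005 after quantile normalization and 0.25 after division by array medians.

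Isg15 and Tapbp rose with SRF-VP16 in the -/- lines. Isg15 (probe set 98822_at) had 9358 and 2124 on the E100 arrays with SRF-VP16 and 2533 and 1111 on those of E81. With SRFdM-VP16 its values were -523 and -257 in E100 and -115 and -216 in E81, and with vector -538 in E100 and -259 and -656 in E81. All 4 SRF-VP16 arrays of the -/- lines stood above the floor and all 7 control arrays lay below 0, so that the groups did not overlap, as in 3.34% of all probe sets. Isg15 passed the filter through its SRF-VP16 arrays alone, so neither this share nor its adjusted p-values are independent support. The rise over SRFdM-VP16 was 47.1-fold with every SRFdM-VP16 array set to the floor of 58 (5.56 ± 0.59, adjusted p = 0.000217). That size depends on the floor, and with a floor at the 60th percentile the change was 3.19 (adjusted p = 0.0016). Isg15 was at the floor of 58 on 17 of 23 arrays, which add no spread to the fit. Its SE and adjusted p-values thus understate the spread of the arrays above the floor. With the floor of 58 the change over vector was also 5.56 ± 0.66 (adjusted p = 0.000568), the same size because the vector arrays were set to that floor too. Each -/- line passed on its own, E81 with 4.85 ± 0.83 (adjusted p = 0.0164) and E100 with 6.26 ± 0.83 (adjusted p = 0.00137).

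Outside the -/- lines the Isg15 readings with SRF-VP16 were dimmer, and the changes did not pass. Wild-type cells had 88 and 890 with SRF-VP16, against -167 and -391 with SRFdM-VP16 and -317 and -278 with vector. The change of 2.27 ± 0.83 (adjusted p = 1.00) was 0.60 without E14wt SRF-VP16 replicate 2 and 3.94 without E14wt SRF-VP16 replicate 1. E99 had 10 and -131 with SRF-VP16, against -269 and -345 with SRFdM-VP16 and -354 and -212 with vector, so that every array of E99 was at the floor. Over the 4 lines, 6 of 8 SRF-VP16 arrays were above the floor, against 0 of 8 SRFdM-VP16 and 0 of 7 vector arrays, and the change was 3.35 ± 0.42 against SRFdM-VP16 (adjusted p = 0.000889). The order of the groups was E100, E81 and wild type with SRF-VP16, at means of 5741 ± 5115, 1822 ± 1006 and 489 ± 567.1 (SD, n = 2 each), and neighbours in this order overlapped except E81 and wild type.

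Tapbp, by its brighter probe set and in values as deposited, was higher on every SRF-VP16 array than on any control array. This probe set, 100154_at, read 5207 and 4734 in E100, 2336 and 4216 in E81, 1034 and 860 in E99 and 1147 and 1089 in wild type with SRF-VP16. With SRFdM-VP16 it read 624 and 684 in E100, 294 and 365 in E81, 426 and 435 in E99 and 447 and 689 in wild type. With vector it read 737 in E100, 293 and 388 in E81, 400 and 291 in E99 and 295 and 804 in wild type. The lowest SRF-VP16 array, at 860, lay above the highest of the 15 control arrays, at 804. In all, 5 of the 9653 probe sets (0.0518%) had all 8 SRF-VP16 arrays above all SRFdM-VP16 and vector arrays. This separation depends on the scale. The array at 860, E99 SRF-VP16 replicate 2, had a median of 157, and E81 SRFdM-VP16 replicate 1, at 294, had one of 53.5. Division by array medians does not keep these 2 arrays apart. Tapbp rose 8.53-fold over SRFdM-VP16 in the -/- lines (3.09 ± 0.30, adjusted p = 8.44e-05) and 4.23-fold over all lines (2.08 ± 0.21, adjusted p = 0.000203). Against vector the changes were 2.99 ± 0.33 (adjusted p = 0.000373) and 2.16 ± 0.22 (adjusted p = 0.000217). Within single lines outside the -/- pair the changes against SRFdM-VP16 were 1.13 ± 0.42 in E99 (adjusted p = 0.850) and 1.01 ± 0.42 in wild type (adjusted p = 1.00), neither past the threshold with 2 arrays against 2.

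The dimmer Tapbp probe set, 102689_at, did not pass. With SRF-VP16 it read 1230 and 879 in E100, 768 and 1457 in E81, 683 and 473 in E99 and 640 and 166 in wild type. With SRFdM-VP16 it read 549 and 232 in E100, 295 and 412 in E81, 269 and 282 in E99 and 282 and 14 in wild type, and with vector 300 to 685 over the 4 lines. The 4 SRF-VP16 arrays of the -/- lines lay above their control arrays, as in 3.34% of all probe sets. In wild type the vector arrays, at 685 and 533, overlapped those with SRF-VP16. Its change was 1.57 ± 0.51 in the -/- lines (adjusted p = 0.159) and 1.38 ± 0.36 over all lines (adjusted p = 0.0747). The annotation names both probe sets for Tapbp, and their changes were not tested against each other.

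**Figure D1:**
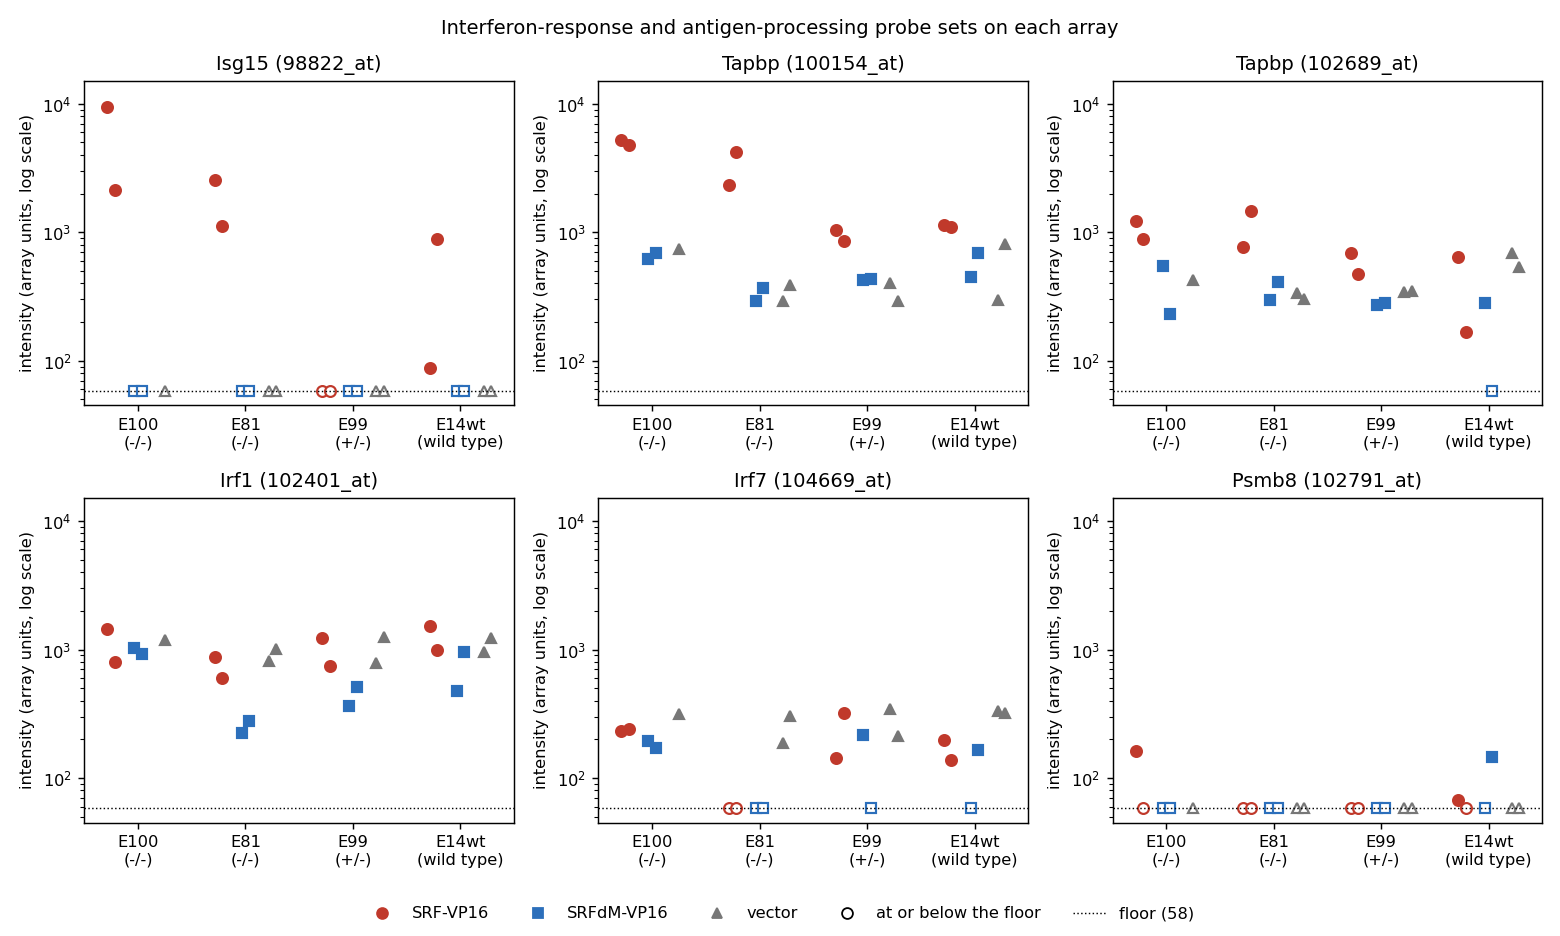
Intensity (log scale) of the 6 tested probe sets on each array, by line, with SRF-VP16 (circles), SRFdM-VP16 (squares) and vector (triangles); open symbols are values at or below the floor of 58, drawn at the floor. Isg15 was above the floor on 6 of 8 SRF-VP16 arrays and on 0 control arrays, Tapbp 100154_at was higher on all 8, and Irf1 and Irf7 were present with vector as well.

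In all, 2 of the 6 tested probe sets were called in the -/- lines, both higher, where 2.81% of all probe sets were called, and 4 of 6 had an unadjusted p under 0.05, as 13.4% of all did. In E81 and E100 taken singly the same count, 2, was called higher, where 0.943% and 0.756% of all were. Over all lines 3 were called, where 1.98% of all were, and 4 had an unadjusted p under 0.05, as 13.4% of all did. With vector as the control 2 were called higher in the -/- lines, where 1.56% of all were, and 2 over all lines, where 0.901% were. These counts leave out the 4 probe sets that were not tested, and Isg15 passed the filter through its SRF-VP16 arrays alone, so the shares are not evidence about the genes followed as a group. In wild type and in E99 limma called 0 of 6, where 0.0207% and 0.0414% of all probe sets were called, and 2 of 6 were higher at an unadjusted p under 0.05 in each, where 3.57% and 4.50% of all had such a p. A smaller change in wild type was not shown by the test of the difference. The Isg15 change in the -/- lines minus that in wild type was 3.29 ± 1.02 (95% interval 1.09 to 5.49, adjusted p = 0.579), and that of Tapbp 2.08 ± 0.52 (interval 0.97 to 3.20, adjusted p = 0.295). No probe set of the genes followed was called for that difference, where 0.0829% of all were, and 2 of 6 had an unadjusted p under 0.05, as 5.32% of all did. With arrays left out 1 at a time the Isg15 difference ranged from 1.62 to 4.96, the highest without E14wt SRF-VP16 replicate 2. Between E81 and E100 the Isg15 changes differed by -1.41 ± 1.18 (adjusted p = 0.608) and those of Tapbp by 0.33 ± 0.60 (adjusted p = 0.835), and 0 of 6 were called, where 0.155% of all were, with 1 of 6 at an unadjusted p under 0.05, as 10.8% of all were.

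Markers of other cell types were read on the same arrays. The summed level of 5 trophoblast markers, of 6 listed, was 764 to 3393 with SRF-VP16 in the -/- lines, against 0 to 236 with SRFdM-VP16. Of the 4 tested, 3 were called higher, where 2.47% of all probe sets were. The largest parts of the sum with SRF-VP16 were the keratin Krt7, at 489 to 2584, and Gata3, at 275 to 591. On these 4 arrays Cdx2 was at the floor on 3 and Hand1 on all 4. Over all lines the sum was 362 to 3393 with SRF-VP16, against 0 to 409 with SRFdM-VP16 and 0 to 438 with vector. The summed level of 9 ES cell markers was 33670 to 60000 with SRF-VP16 in the -/- lines, against 49900 to 96460 with SRFdM-VP16. Of the 9, 1 was called lower, Fgf4, where 2.81% of all probe sets were called in either direction. At an unadjusted p under 0.05, 3 of the 9 were lower and 0 higher, where 13.4% of all had such a p. The median change of the 9 was -0.49, against 0.04 over all probe sets. The part of either shift in the rises of Isg15 and Tapbp was not tested. Of 11 blood and immune markers, 0 of the 7 tested were called in the -/- lines by limma, where 2.81% of all probe sets were. Of the 7, 1 was higher at an unadjusted p under 0.05, where 13.4% of all had such a p. The summed level of the 11 was 3638 to 11030 with SRF-VP16 against 3680 to 10200 with SRFdM-VP16. Ptprc, Lyz2, Cd53 and H2-Aa were at the floor on all 23 arrays. The largest part of this sum was Laptm5, at 2434 to 7306 with SRF-VP16 against 3535 to 9157 with SRFdM-VP16. Cd74 went the other way, at 555 to 3065 against -109 to 595. In bulk RNA, more cells with a transcript and more transcript per cell cannot be told apart.

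Irf1 was expressed with every plasmid, and in each line its mean was lowest with SRFdM-VP16. Probe set 102401_at read 1438 and 793 in E100, 870 and 595 in E81, 1230 and 750 in E99 and 1523 and 987 in wild type with SRF-VP16. With SRFdM-VP16 it read 1021 and 915 in E100, 224 and 280 in E81, 363 and 507 in E99 and 472 and 960 in wild type. With vector it read 1182 in E100, 813 and 1010 in E81, 791 and 1250 in E99 and 960 and 1225 in wild type. The SRF-VP16 and vector arrays overlapped in all 4 lines, and the 2 SRFdM-VP16 arrays of E81 were the lowest of all 23. Over all lines Irf1 was higher with SRF-VP16 than with SRFdM-VP16, by 0.92 ± 0.22 (adjusted p = 0.0441), but against vector the change was -0.09 ± 0.23 (adjusted p = 0.893). SRFdM-VP16 against vector gave -1.01 ± 0.23 (adjusted p = 0.0598). After division by array medians, which moves the median of all probe sets as given above, these changes were 0.51 for SRF-VP16 against SRFdM-VP16 (adjusted p = 0.15) and -0.39 for SRFdM-VP16 against vector (adjusted p = 0.295). In the -/- lines the change against SRFdM-VP16 was 0.83 ± 0.30 (adjusted p = 0.226). Against SRFdM-VP16 over all lines Irf1 passed in 10 of 28 other settings.

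Irf7, which encodes the factor that amplifies type I interferon genes, was dim throughout. Probe set 104669_at read 234 and 242 in E100, -25 and -619 in E81, 144 and 323 in E99 and 198 and 137 in wild type with SRF-VP16. With SRFdM-VP16 it read 194 and 171 in E100, -875 and -432 in E81, 218 and 5 in E99 and -333 and 164 in wild type. With vector it read 317 in E100, 186 and 303 in E81, 342 and 211 in E99 and 334 and 321 in wild type. All 7 vector arrays were above the floor, against 6 of 8 with SRF-VP16 and 4 of 8 with SRFdM-VP16. SRF-VP16 against SRFdM-VP16 gave 0.52 ± 0.31 over all lines (adjusted p = 0.534), but SRF-VP16 against vector gave -0.94 ± 0.33 (adjusted p = 0.197). In the -/- lines SRF-VP16 against vector gave -1.22 ± 0.49 (adjusted p = 0.234). SRFdM-VP16 against vector gave -1.46 ± 0.33 over all lines (adjusted p = 0.0605). The size of the last value depended on the floor, from -4.10 with a floor of 1 to -0.08 with a floor at the 60th percentile. The E81 arrays with SRF-VP16 or SRFdM-VP16, on which Irf7 was below 0, all had over 30% of their values at or below 0, and the part of this background in the Irf1 and Irf7 values was not tested. Called for SRFdM-VP16 against vector were 0 of the 6 probe sets, where 0.798% of all were called, and 2 of 6 were lower at an unadjusted p under 0.05, as 13.3% of all were. With the replicate number as a block 0 of 6 were again called, and Irf1 gave -1.08 (adjusted p = 0.127) and Irf7 -1.47 (adjusted p = 0.149), while over all probe sets 2 were called with the block and 77 without it. For Isg15 that comparison gave 0.00 with every array at the floor, and for Tapbp 100154_at it gave 0.08 ± 0.22 (95% interval -0.41 to 0.56, adjusted p = 0.900), or 0.70 after division by array medians (adjusted p = 0.125).

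**Figure D2:**
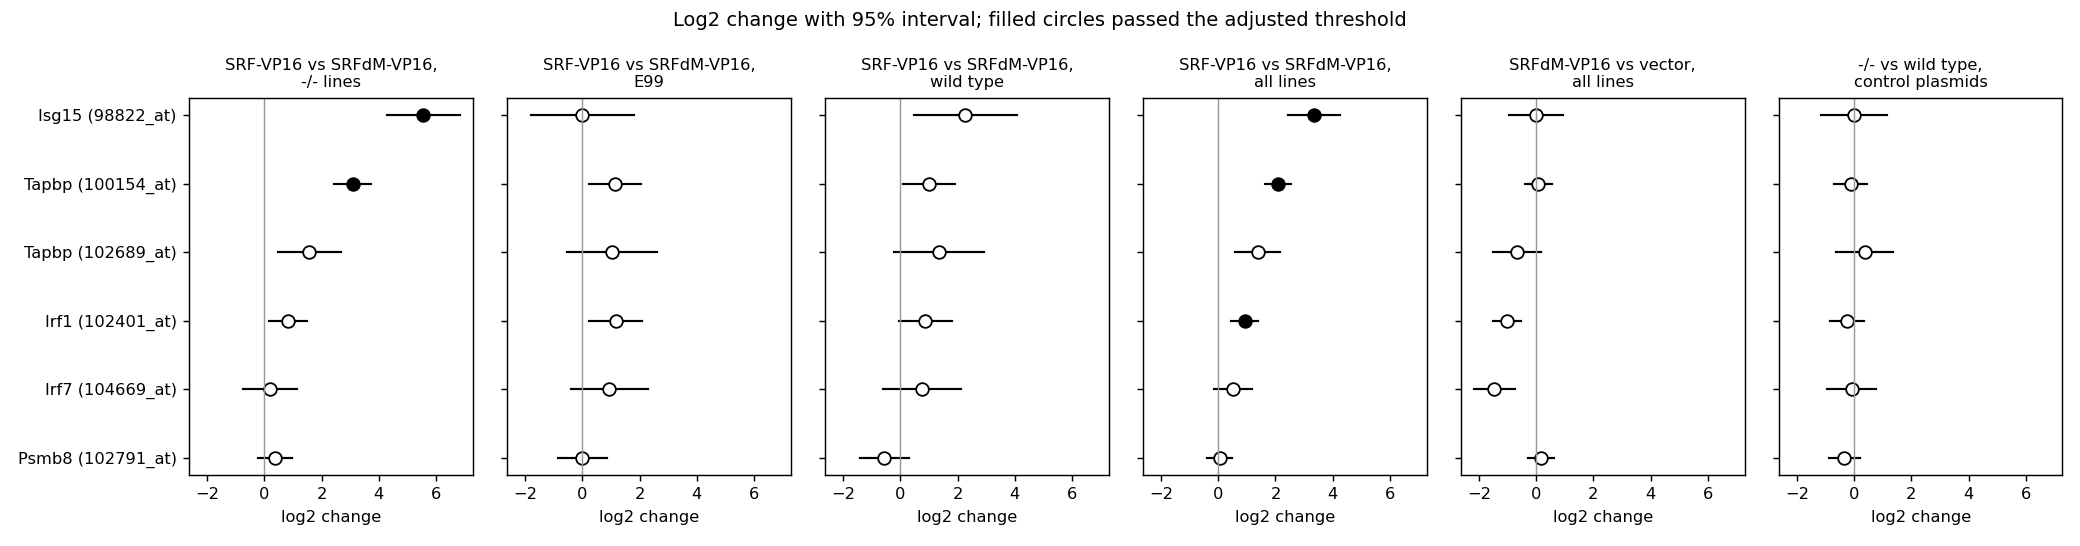
Log2 change (points) with 95% interval (lines) of the 6 tested probe sets in 6 comparisons; filled points had an adjusted p under 0.05. Isg15 and Tapbp 100154_at were called with SRF-VP16 in the -/- lines and over all lines, Irf1 over all lines, and none for SRFdM-VP16 against vector or for -/- against wild type.

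Ifit1, Ifit3, Usp18 and Psmb9 were not above the floor on any of the 23 arrays and were not tested. Ifit1 (100981_at) ran from -130 to 25 with SRF-VP16, -199 to -35 with SRFdM-VP16 and -126 to -37 with vector. Ifit3 (93956_at) ran from -208 to 46 with SRF-VP16, -230 to 18 with SRFdM-VP16 and -87 to 8 with vector. None of these ranges reached the floor. Usp18 (95024_at) ran from -320 to 0 with SRF-VP16, -278 to 0 with SRFdM-VP16 and -125 to 18 with vector. Psmb9 (93085_at) ran from -833 to -53 with SRF-VP16, -612 to -148 with SRFdM-VP16 and -443 to -125 with vector. These 4 probe sets give an upper bound only, the floor, on the SRF-VP16 arrays that read Isg15 at up to 9358. Ifit1 and Ifit3, which hold the ISRE core printed above, were thus not detectable on the arrays on which Isg15 rose, and no level can be given below the floor. Psmb8 (102791_at) was above the floor on 3 of 23 arrays, at 161 in E100 and 68 in wild type with SRF-VP16 and at 147 in wild type with SRFdM-VP16. Its change against SRFdM-VP16 was 0.37 ± 0.28 in the -/- lines (adjusted p = 0.652) and 0.05 ± 0.20 over all lines (adjusted p = 0.967).

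**Figure D3:**
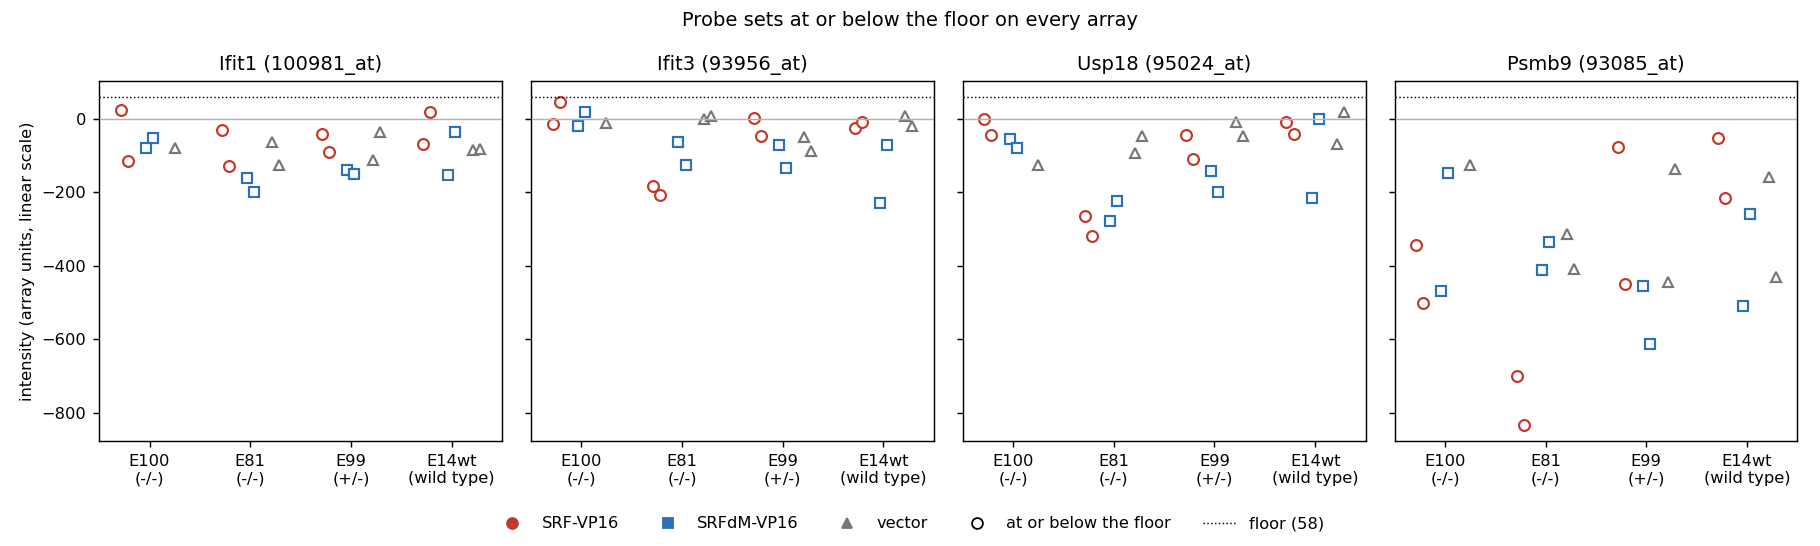
Intensity (linear scale) of the 4 probe sets that were at or below the floor of 58 (dotted line) on every array, by line and plasmid. Ifit1, Ifit3 and Usp18 lie between -320 and 46 and Psmb9 between -833 and -53, with SRF-VP16 as with the control plasmids.

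Averaged over both control plasmids, the line alone did not move these genes past the threshold. With both control plasmids, -/- against wild type gave 0 calls among the 6 probe sets, where 0.0829% of all were called, and E99 against wild type gave 0, where 0.0725% were, with 0 of 6 at an unadjusted p under 0.05 in each, where 6.32% and 4.19% of all were. Tapbp 100154_at averaged 483.6 ± 191.3 in the -/- lines (SD, n = 7) and 558.6 ± 230.5 in wild type (SD, n = 4), a change of -0.11 ± 0.27 (95% interval -0.69 to 0.47). Irf1 averaged 777.9 ± 376.6 in the -/- lines (SD, n = 7) and 904.3 ± 314.1 in wild type (SD, n = 4), a change of -0.26 ± 0.27 (interval -0.85 to 0.33). Between the -/- lines the values lay further apart, also without a call. E81 against E100 gave -1.06 ± 0.33 for Tapbp 100154_at (adjusted p = 0.185) and -1.17 ± 0.34 for Irf1 (adjusted p = 0.153), and after division by array medians these were -0.37 and -0.48. There 0 of 6 were called, where 0.787% of all were, and 2 of 6 were lower at an unadjusted p under 0.05, as 13.7% of all had such a p. With SRFdM-VP16 alone the Irf1 value was -1.95 and passed (adjusted p = 0.0498), against -0.38 with vector alone (adjusted p = 1.00).

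The rest of the pathway was read through 122 listed genes, of which 86 were annotated and 72 tested, each by its brightest probe set. In the -/- lines 1 of the 72 was higher with SRF-VP16 than with SRFdM-VP16 and 0 were lower, a share of 1.39% against 2.47% of all probe sets called higher, and 14 were higher and 3 lower at an unadjusted p under 0.05, where 13.4% of all probe sets had such a p in either direction. The median log2 change of the 72 was 0.16, against 0.04 over all probe sets. The gene called was Ifi202b, of the interferon-inducible p200 family, at 125.5 ± 57.2 with SRF-VP16 and -31.8 ± 46.8 with SRFdM-VP16 (SD, n = 4 each). Its change was 1.02 ± 0.24 (adjusted p = 0.0333), and its other probe set was not tested. Every SRFdM-VP16 array of the -/- lines and 1 SRF-VP16 array of E81 were at the floor for Ifi202b, so the size of this change depends on the floor. By role, 0 of 5 interferon ligands, 0 of 5 receptor chains, 0 of 8 signalling genes, 0 of 2 other IRFs and 0 of 5 nucleic acid sensors were called. Of these, 3 of the 5 sensors, 1 receptor chain and 2 signalling genes were higher at an unadjusted p under 0.05. There 1 signalling gene was lower, and 13.4% of all probe sets had such a p in either direction. In SRF-VP16 against SRFdM-VP16 in wild type, E99 and all lines, limma called 0 of the 72, where 0.0207%, 0.0414% and 1.98% of all were called. At an unadjusted p under 0.05, 3, 5 and 8 of the 72 were higher and 0, 0 and 3 lower, where 3.57%, 4.50% and 13.4% of all had such a p. In SRFdM-VP16 against vector it called 0, where 0.798% of all were called, with 9 lower at an unadjusted p under 0.05, as 13.3% of all were.

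Of the direct partners, beta-2-microglobulin (B2m), the light chain of MHC class I, had the largest change, which did not pass. B2m had 5236 and 7899 in E100 and 3253 and 9629 in E81 with SRF-VP16. With SRFdM-VP16 it had 349 and 2066 in E100 and 90 and 1284 in E81, and with vector 481 in E100 and 502 and 1785 in E81. All 4 SRF-VP16 arrays lay above the 7 control arrays, as in 3.34% of all probe sets. The control arrays themselves ranged from 90 to 2066, and the change was 3.48 ± 0.95 (adjusted p = 0.0765). Over all lines the B2m change was 2.38 ± 0.67 (adjusted p = 0.104). The peptide transporters Tap1 and Tap2, between which Psmb8 lies in the genome, gave 0.67 ± 0.67 and 0.25 ± 0.17 (adjusted p = 0.756 and 0.602). The MHC class I list as a whole had 0 of 11 called, where 2.81% of all were, with 4 higher at an unadjusted p under 0.05, where 13.4% of all had such a p.

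The remaining partners were not called either. Irf9, a DNA-binding factor of the type I interferon response, averaged 183.5 with SRF-VP16 and 420 with SRFdM-VP16 in the -/- lines, and its change of -1.37 ± 0.41 did not pass (adjusted p = 0.108). For the enzymes that attach Isg15, the change was 0.63 ± 0.65 for Uba7, the activating enzyme (adjusted p = 0.768), and -0.23 ± 0.57 for Ube2l6, the conjugating enzyme (adjusted p = 0.945). Ifit2 was at the floor on all arrays, as Ifit1 and Ifit3 were. Psmb10, the third catalytic subunit of the immunoproteasome, gave -0.44 ± 0.92 (adjusted p = 0.920). The constitutive subunits that the immunoproteasome subunits replace, Psmb5, Psmb6 and Psmb7, averaged 7452, 9775 and 8116 with SRF-VP16 and 6871, 10420 and 7511 with SRFdM-VP16, with changes of 0.20 ± 0.22, -0.09 ± 0.19 and 0.12 ± 0.17.

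**Figure D4:**
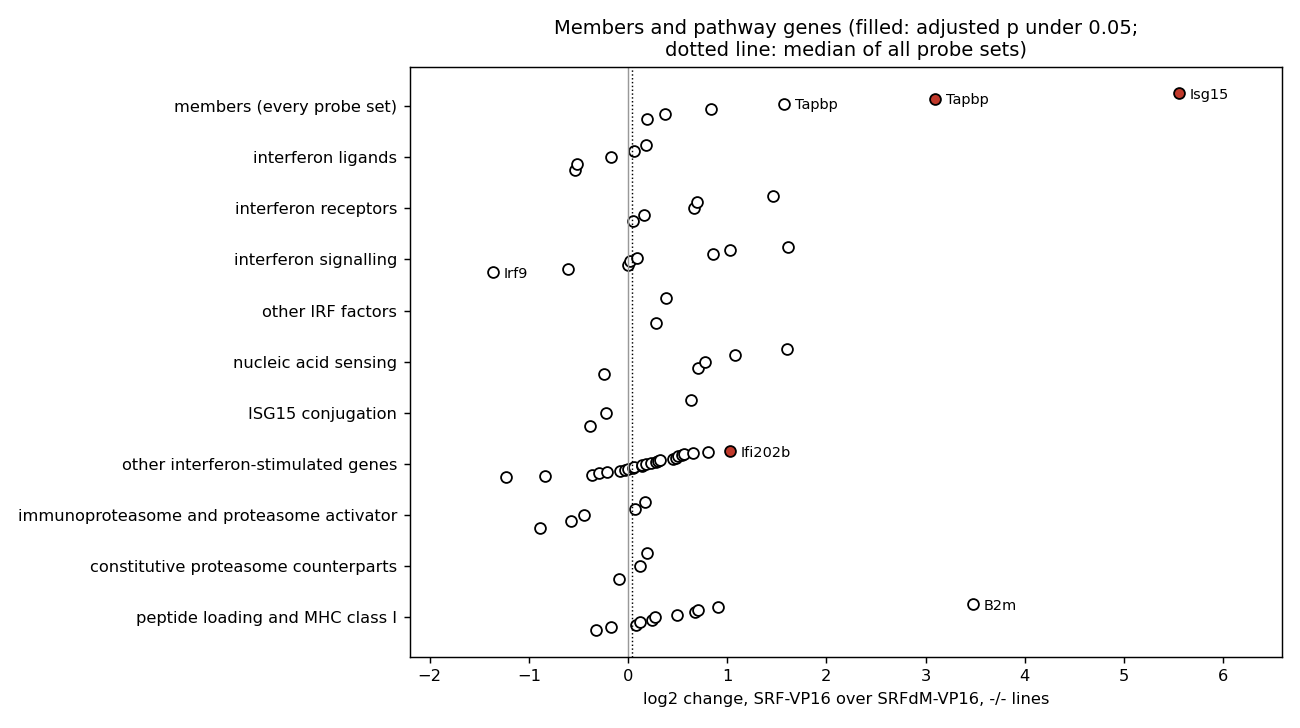
Log2 change with SRF-VP16 over SRFdM-VP16 in the -/- lines for the tested probe sets of the genes followed and for 72 pathway genes by role; filled points had an adjusted p under 0.05, and the dotted line is the median of all probe sets. Isg15, Tapbp 100154_at and Ifi202b were called, and the other pathway genes, B2m at 3.48 included, were not.

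The profiles most like those of the called genes were sought over the 12 group means. Closest to Isg15 were the keratins Krt17 (Pearson r = 0.98) and Krt20 (r = 0.97), the protease inhibitor Timp1 (r = 0.97), the reductase Cyb5r3 (r = 0.97) and the natriuretic peptide gene Nppb (r = 0.96). Closest to Tapbp 100154_at were Nppb, Tuft1, the cathepsin inhibitor Cstb, the urokinase receptor Plaur and the nuclear receptor Nr2f6 (each r = 0.97). Isg15 and Tapbp 100154_at correlated with each other at r = 0.93, Irf1 with Irf7 at r = 0.78, and Isg15 with Irf1 at r = 0.19. Closest to Irf1 were Ndufb2 (r = 0.95), Dym, Tmem43 and Pih1d1 (each r = 0.94) and Ppil2 (r = 0.93). These correlations describe 12 points that share arrays, lines and plasmids. Isg15 was at the floor on 17 of 23 arrays, so its correlations rest on the few groups above the floor, all with SRF-VP16.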

How the data were processed

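The 23 oligonucleotide arrays measured total RNA of transfected mouse ES cells. Values were deposited as linear intensity, with a background or mismatch signal already subtracted, as values below 0 show; software and scaling: not given in the sources used here. Probe sets were named by the platform annotation supplied with the series (10141 with 1 symbol, 362 with several, 1933 with none); 66 control probe sets were left out. Values were used as deposited, raised to the floor of 58 and put on the log2 scale. The filter, 2 or more arrays over their own 40th percentile, removed 2783 probe sets. limma 3.58.1 in R 4.3.3 was fitted to all arrays with 1 mean per group (11 residual degrees of freedom), with eBayes (trend) and two-sided tests. The number of arrays limits the precision. All probe sets of the genes followed were named; of the pathway lists, the genes called and the direct partners, and for each called gene the 5 probe sets of other genes with the highest correlation. Genes and lists were chosen with earlier results of these data known. Replicate numbers come from the labels, which do not say what they share; by the data they paired SRFdM-VP16 with vector arrays (replicate differences correlated at 0.306 to 0.417), but not SRF-VP16 arrays in every line. The procedure was tested on simulated data. Alternatives were quantile normalization, division by the array median, other floors, an inverse hyperbolic sine, other filters, no trend, only the arrays compared, a replicate block, vector as the control, single lines or plasmids and leaving out arrays; a floor of 1, a crossed block, and E99 or both lines in place of wild type were chosen after seeing the data. Srf and Zyx were not analysed here. Promoters are from RefSeq (GRCm38.p6).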

Additional observations from a re-analysis of the deposited data

Results flagged for a closer look

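Of 42 overlapping sets of 4 to 8 arrays, 5 held an array that stood apart from the others on floored values. Psmb8 was at the floor on 20 of 23 arrays, so a lone array above the floor stands apart by construction. The usual chance rate of about 1 in 20 does not hold for such values, and the count was not tested. Psmb8 read 161 on E100 SRF-VP16 replicate 1, apart from the other SRF-VP16 arrays of the -/- lines and from those of all lines. Psmb8 also read 147 on E14wt SRFdM-VP16 replicate 2, apart from the other SRFdM-VP16 arrays and from the other wild-type control arrays. On that wild-type array Tapbp 102689_at read 14, the lowest of the 8 SRFdM-VP16 arrays.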

How the results depend on the processing

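Isg15 and Tapbp 100154_at were called in the -/- lines in 22 of 22 other settings and over all lines in 28 of 28. Tapbp ranged from 2.71 to 3.31 in the -/- lines and 1.67 to 2.19 over all lines. Isg15, whose control arrays were at the floor, ranged from 3.19 with a floor at the 60th percentile to 11.42 with a floor of 1, so its size depends on the floor. Irf1 over all lines passed in 10 of 28 settings and in 5 of 16 that left out an array, and with vector as the control it was -0.088. Tapbp 102689_at passed over all lines in 6 of 28 settings. Left out 1 at a time, arrays gave 2 to 4 calls over all lines against 3 with all arrays (4 without E14wt SRF-VP16 replicate 2), 0 to 2 against 0 for SRFdM-VP16 against vector, 0 to 1 against 0 for the difference between -/- and wild type, and no other count of calls moved. For SRFdM-VP16 against vector, 2 were called without E14wt SRFdM-VP16 replicate 2 or E81 SRFdM-VP16 replicate 2 (Irf1 and Irf7 in both), and 1, Irf7, without E99 SRFdM-VP16 replicate 1. The same comparison gave 1 call with the inverse hyperbolic sine (Irf7), 1 with no filter (Irf1) and 1 without the wild-type control arrays numbered 2 (Irf7), and E81 against E100 gave 1 with SRFdM-VP16 alone (Irf1); the cause was not tested. The difference between -/- and wild type for Isg15 ranged from 1.62 to 4.96 over arrays left out. In place of wild type, E99 gave 5.56 for Isg15 (adjusted p = 0.091), and both lines averaged gave 4.42 (adjusted p = 0.0588), settings chosen after seeing the data. Over all probe sets, the number called in the -/- lines was 271, against 97 for E81 alone, 114 for E100 alone, 113 with only the arrays compared and 516 without E81 SRFdM-VP16 replicate 2.

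Between SRFdM-VP16 and vector, the replicate differences correlated over probe sets at 0.417 in wild type, 0.317 in E99 and 0.306 in E81. Between SRF-VP16 and SRFdM-VP16 they did so at -0.253 in wild type, -0.332 in E99, 0.263 in E81 and 0.248 in E100, and between SRF-VP16 and vector at -0.331, -0.349 and 0.277 in wild type, E99 and E81. So same-numbered SRFdM-VP16 and vector arrays deviated together, while those with SRF-VP16 did so in the -/- lines and not in wild type or E99. A replicate block left 2 calls in the -/- lines and 3 over all lines, where Tapbp 102689_at passed (adjusted p = 0.0323) and Irf1 did not (adjusted p = 0.0952). With the numbers crossed in wild type and E99, 0 were called in each.

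Probe sets at the floor have no lower level, and 40.1% of all values lay there. With 2 arrays a group, 11 residual degrees of freedom and shared spread, changes of about the size of Tapbp in wild type did not pass.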

Other observations

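The genes that flank Isg15 and Tapbp were read in the -/- lines, a choice made after the values were seen. Next to Tapbp, Rgl2 averaged 692.8 ± 97.73 with SRF-VP16 and 728.5 ± 175.3 with SRFdM-VP16 (SD, n = 4 each), a change of -0.05 ± 0.22 (limma, adjusted p = 0.994). On its other side, the brightest Zbtb22 probe set averaged 1199 ± 212.3 with SRF-VP16 and 949.8 ± 706.1 with SRFdM-VP16, a change of 1.07 ± 0.56 (adjusted p = 0.454). The other tested Zbtb22 probe set gave 0.01 ± 0.32. Next to Isg15, the brighter Agrn probe set averaged 4045 ± 859.1 with SRF-VP16 and 2593 ± 1034 with SRFdM-VP16, a change of 0.74 ± 0.42 (adjusted p = 0.500). The dimmer Agrn probe set gave 0.03 ± 0.49.

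The classical heavy-chain gene H2-K1, also named after its values were seen, averaged 2728 with SRF-VP16 and 1478 with SRFdM-VP16 in the -/- lines. The 4 SRF-VP16 arrays lay above all control arrays of these lines, as in 3.34% of all probe sets. Its change of 0.91 ± 0.25 was short of the threshold (adjusted p = 0.0739). Its probe set can hybridise to related transcripts.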
